A study of Mus musculus with 12 samples.

Results

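The 8 genes described here are Meis1, Meis2, Meis3, Pbx2, Pbx3, Tshz1, Tshz2 and Tshz3, which encode homeodomain and zinc finger transcription factors. They are 8 of the 55335 genes listed. They were chosen by name, as the rows of the gene table that carry one of these symbols, with earlier results of these data known. Their levels came from single-nucleus RNA sequencing of the forebrain of mice at postnatal day 1, from 12 libraries of 1 animal each. The 8 WT libraries came from 5 males and 3 females. The 4 Het libraries came from 3 males and 1 female that carried 1 copy of the Myt1l S710fsX frameshift allele, so that sex and the library Het 4 cannot be told apart among the Het animals. All animals were of the Myt1l S710fsX line on C57BL/6, the allele is present in every cell, and all libraries were prepared together on 1 plate. The labels give the region as forebrain, whereas one passage of the study's methods speaks of prefrontal cortex at this age, so how much striatum and olfactory bulb each piece held is not known. The D1-like and D2-like neurons together made up 0.572 to 16.1% of the nuclei of a library, the olfactory-type-like neurons 0.517 to 5.69%.

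MEIS and PBX proteins belong to the three-amino-acid-loop-extension class of homeodomain proteins. They bind DNA together, PBX being the partner that MEIS brings to shared sites and, in the embryo, to sites of the HOX proteins. In the forebrain, Meis2 is known from the lateral ganglionic eminence, the source of striatal projection neurons and of olfactory bulb interneurons, and acts there beside the DLX and PAX6 factors. TSHZ proteins are related to the Drosophila teashirt protein. Tshz1 is known for its part in the maturation of olfactory bulb interneurons and in one subset of striatal neurons, and Tshz3 for its part in deep-layer cortical projection neurons and in cholinergic interneurons of the striatum.

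After the study's limits on unique molecular identifiers (UMIs, the counted transcript molecules), genes and mitochondrial reads and the removal of marked doublets, 94436 of 126684 barcodes remained, 55110 from WT and 39326 from Het. No barcode occurred in more than 1 library. The libraries held between 15439429 and 40784144 UMIs and kept between 4461 and 10875 nuclei. Clusters of nuclei were named from marker genes and carry the ending "-like", and 32682 nuclei in clusters that no marker list fitted stayed unnamed. The 8 genes took no part in the clustering. The library WT 4 held 19 D1-like and 10 D2-like nuclei and stood apart in the striatal values given below. Myt1l itself, the gene that carries the allele, was at 1275 to 1611 CPM (UMIs of the gene in counts-per-million units) in WT and at 1535 to 1654 CPM in Het over all nuclei (log2 difference 0.12 ± 0.06, SE, adjusted p = 0.546, edgeR), and the counts do not separate the mutant transcript from the intact one.

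The coding sequences are shown first, because near-identical paralogs could share reads. Each stretch below is the run of 90 coding bases that shares the most bases, without gaps, between the first gene shown and the other genes shown of its family, read from GRCm38 with its GENCODE annotation, 5′ to 3′ on the coding strand, with capitals where the bases are the same in all members shown. The Meis stretch runs over exons 5 and 6 of each gene and holds 63 bases that are the same in all 3 genes. The part of it in Meis2 (minus strand) lies at chr2:116059514-116059539 and chr2:116058717-116058780, that in Meis1 (minus strand) at chr11:19012810-19012835 and chr11:19011325-19011388, and that in Meis3 (plus strand) at chr7:16178770-16178795 and chr7:16178951-16179014.
Meis2: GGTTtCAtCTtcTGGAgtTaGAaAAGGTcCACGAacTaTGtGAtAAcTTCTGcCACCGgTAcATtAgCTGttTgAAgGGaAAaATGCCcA
Meis1: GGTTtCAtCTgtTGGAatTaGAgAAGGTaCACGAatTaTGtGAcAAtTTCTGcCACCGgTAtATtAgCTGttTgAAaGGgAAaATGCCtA
Meis3: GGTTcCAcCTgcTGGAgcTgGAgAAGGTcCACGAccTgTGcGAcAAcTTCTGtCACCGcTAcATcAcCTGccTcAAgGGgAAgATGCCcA

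The Pbx stretch runs over exons 1 and 2 and holds 78 bases that Pbx3 and Pbx2 have in common. It lies at chr2:34371721-34371788 and chr2:34370876-34370897 in Pbx3 (minus strand) and at chr17:34592707-34592774 and chr17:34593572-34593593 in Pbx2 (plus strand). Tshz1 is not shown, and of the 90 bases of their own most alike stretches it shares 80 with Tshz3 and 78 with Tshz2. The stretch of Tshz2 and Tshz3 lies in exon 2, with 77 bases in common, at chr2:169886099-169886188 in Tshz2 and at chr7:36771363-36771452 in Tshz3, both on the plus strand.
Pbx3: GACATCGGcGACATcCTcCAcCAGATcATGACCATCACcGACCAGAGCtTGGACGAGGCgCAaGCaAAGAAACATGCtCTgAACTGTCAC
Pbx2: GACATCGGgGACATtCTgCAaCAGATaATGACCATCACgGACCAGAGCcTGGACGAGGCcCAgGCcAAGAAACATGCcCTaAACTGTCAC
Tshz2: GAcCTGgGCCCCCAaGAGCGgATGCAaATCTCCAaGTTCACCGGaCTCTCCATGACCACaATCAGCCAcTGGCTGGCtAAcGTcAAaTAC
Tshz3: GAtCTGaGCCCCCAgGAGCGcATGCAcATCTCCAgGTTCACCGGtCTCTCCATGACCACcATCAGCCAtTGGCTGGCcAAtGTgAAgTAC

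The longest unbroken run of capitals in these stretches was 5 bases for Meis, 11 for Pbx and 14 for Tshz. The longest run of coding bases that any pair within a family shared was between 16 bases, for Pbx2 and Pbx3, and 29 bases, for Tshz1 and Tshz3. Overlap with other annotated genes was wider than likeness to paralogs. Meis1 overlaps 5 annotated genes, Tshz3 5, Tshz2 3, Pbx3 1 and Pbx2 1, while Meis2, Meis3 and Tshz1 overlap none. The sources used here do not say whether the counting used strand, and reads in these shared stretches could belong to either gene.

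Meis2, the MEIS gene of the lateral ganglionic eminence, was highest in the olfactory-type-like inhibitory neurons, the intermediate progenitor-like cells and the striatal-like neurons. In the olfactory-type-like neurons it ranged over the 12 libraries from 3457 to 6511 CPM, with a median of 4480.3 CPM and a mean of 4694 ± 830.1 CPM (SD, n = 12). In the intermediate progenitor-like cells, the Eomes-positive cells of the cortical excitatory lineage, the mean was 4479 ± 433 CPM. The D2-like and D1-like striatal neurons followed at 4110.2 ± 307 and 2914 ± 196 CPM.

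The order of the first 3 was not fixed by the data, since neighbours differed by less than the SD of the difference within libraries. Meis2 was higher in D2-like than in D1-like neurons in 12 of 12 libraries, by 1196 ± 241 CPM. Excitatory classes lay lower as a whole, at 839 ± 131 CPM in deep-layer-like and 579 ± 131 CPM in upper-layer-like neurons, and the MGE-like interneurons were at 167 ± 54.9 CPM. No library of these 3 classes reached the lowest value of any olfactory-type-like or striatal-like library. These class levels pool unlike clusters and leave out unnamed ones. Cluster 4 of the upper-layer-like class and the unnamed cluster 0, of excitatory type, lay well above both excitatory class means, as given below. Where nuclei were instead gated one by one on marker UMIs, which kept 1178 olfactory-type nuclei, Meis2 was at 2951 ± 702 CPM in these and came after the D2-like nuclei at 3415 ± 736 CPM. The gate gives no value for the intermediate progenitor-like cells, since 96 nuclei passed it for this class, 37 of them among the 2219 nuclei of the cluster. The excitatory classes came closer together, at 983 ± 257 CPM in upper-layer and 950 ± 106 CPM in deep-layer nuclei.

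The share of nuclei with at least 1 Meis2 UMI was higher in the same classes than in the excitatory neurons and interneurons, with the D2-like nuclei first. It was 94.99% of the olfactory-type-like nuclei (exact Clopper-Pearson 95% interval 94.0 to 95.9%), 99.2% of the D2-like nuclei, 66.0% of the deep-layer-like nuclei and 41.3% of the upper-layer-like nuclei. In the MGE-like nuclei it was 12.7% (11.8 to 13.6%), at a median of 1806 UMIs per nucleus against 1278.5 in the olfactory-type-like nuclei. With every nucleus thinned to 1000 UMIs the shares of these 5 classes were 92.8%, 97.1%, 47.8%, 29.2% and 8.69%, in the same order. These intervals cover counting error only.

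Meis1, the close relative of Meis2, was likewise highest in the olfactory-type-like neurons, at 492 ± 131 CPM (range 283 to 674). The D2-like neurons came next at 328 ± 139 CPM and the astroglia-like cells at 304 ± 65.6 CPM. Neighbours among these 3 differed by less than the SD of their difference within libraries, and the D2-like range reached from 0 in WT 4, with its 10 D2-like nuclei, to 519.9 CPM in Het 3. D1-like neurons held 111 ± 22.3 CPM. Meis1 was near the floor in cortical excitatory neurons, at 6.17 ± 3.39 CPM in upper-layer-like and 4.12 ± 1.53 CPM in deep-layer-like nuclei.

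Meis3 varied little between the classes of neurons. Its mean was 46.5 CPM in olfactory-type-like, 54.6 CPM in D1-like, 57.1 CPM in D2-like, 52.1 CPM in upper-layer-like and 56.6 CPM in deep-layer-like neurons. It stood higher only in the cholinergic-like neurons (114.5 ± 89.8 CPM in 6 libraries, from 27 UMIs in all), where the difference from the next class was smaller than its spread. Pbx2 was low throughout, with means between 6.76 and 31.7 CPM in the classes other than the cholinergic-like neurons. In these it was at 0 CPM in the 6 libraries with at least 10 of the nuclei, and 2 of all 127 nuclei had a UMI (1.57%, exact Clopper-Pearson 95% interval 0.191 to 5.57%). No neighbours among its 4 highest classes, the mural/fibroblast-like, endothelial-like, astroglia-like and microglia-like cells, differed beyond their spread.

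Pbx3, a PBX partner of the MEIS proteins, had a mean of 5926 ± 774 CPM in the olfactory-type-like neurons (range 4884 to 7318). It was followed by the cholinergic-like neurons at 4139.7 ± 607 CPM in 6 libraries, the D1-like neurons at 2564 ± 477 CPM and the D2-like neurons at 1201 ± 204 CPM. Here the order within the striatum was the reverse of that of Meis2: Pbx3 was higher in D1-like than in D2-like neurons in 12 of 12 libraries, by 1362 ± 363 CPM. The upper-layer-like and deep-layer-like neurons held 36.5 ± 13.1 and 49.5 ± 20.1 CPM, below every olfactory-type-like and striatal-like library. The first place depended on how nuclei were chosen, since with nuclei gated on marker UMIs Pbx3 was at 2860 ± 1136 CPM in olfactory-type and at 3332 ± 1081 CPM in cholinergic nuclei. Pbx3 had a UMI in 83.3% of olfactory-type-like, 80.2% of D1-like, 59.5% of D2-like and 5.39% of upper-layer-like nuclei.

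**Figure D1:**
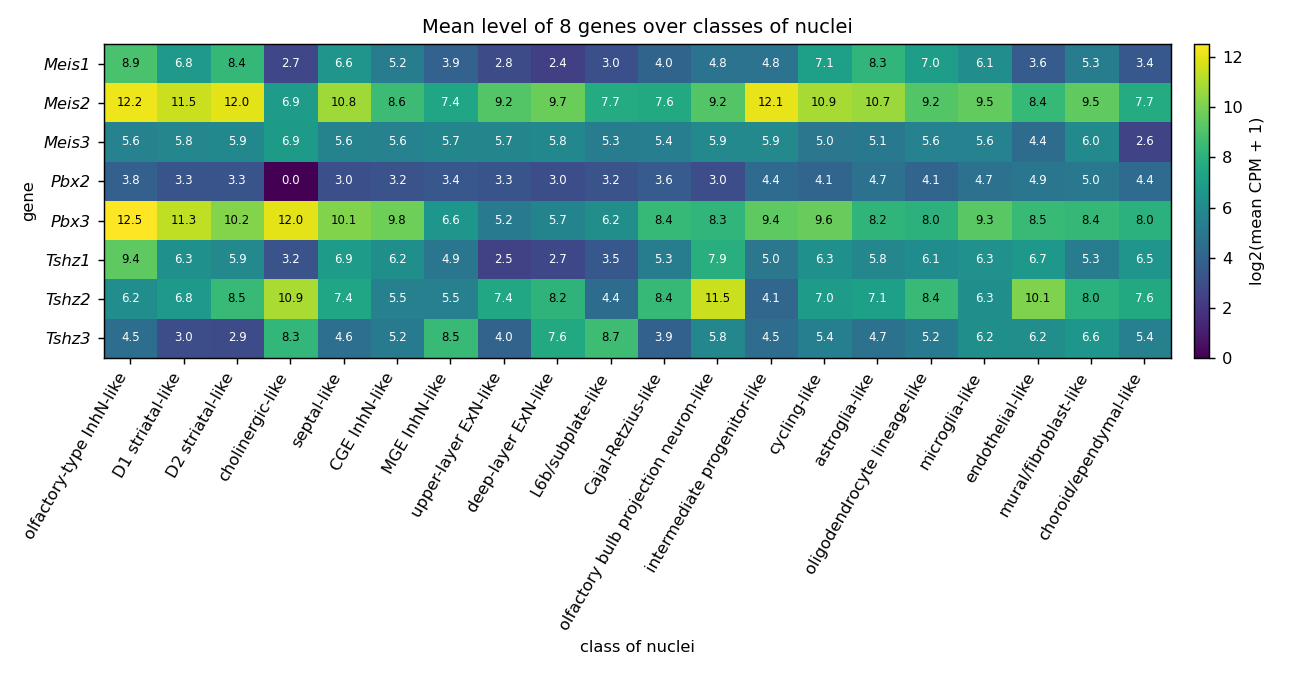
Heat map of the mean level over libraries, as log2(CPM + 1), of the 8 genes (rows) in 20 named classes of nuclei (columns), with each value printed in its cell. Meis2 and Pbx3 are bright in the olfactory-type-like and striatal-like columns, Tshz3 in the L6b/subplate-like and MGE-like columns, and Tshz2 in the olfactory bulb projection neuron-like column. Colours compare classes within a gene, since levels were not scaled by gene length.

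Tshz1 was highest in the olfactory-type-like neurons. Its mean there was 677 ± 89.3 CPM (range 494 to 821), and it was higher than in the next class, the olfactory bulb projection neuron-like cells at 240.2 ± 71.1 CPM, in 7 of 7 libraries that had both. D1-like and D2-like neurons held 77.9 ± 27.2 and 57.9 ± 15.3 CPM, and upper-layer-like neurons 4.48 ± 1.20 CPM. With gated nuclei Tshz1 was at 265 ± 133 CPM in olfactory-type nuclei and again highest there, while the D1 nuclei at 30.1 ± 11.8 CPM were below the D2 nuclei at 86.1 ± 36.8 CPM. A UMI of Tshz1 was found in 45.9% of the olfactory-type-like and in 0.808% of the upper-layer-like nuclei.

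The D1-like level of Tshz1 was a mixture. The D1-like class held 2 clusters, the larger cluster 1 with 5133 nuclei and the smaller cluster 35 with 627 nuclei, whose leading genes were Isl1, Tshz1, Casz1 and Foxp2. Tshz1 was at 31.2 ± 7.74 CPM in cluster 1 over 12 libraries and at 582 ± 274 CPM in cluster 35 over the 9 libraries with at least 10 of its nuclei, a range of 313 to 1065 CPM. Pbx3 was also higher in cluster 35, at 3912 ± 934 against 2449 ± 491 CPM, while Meis2 was not (2508 ± 561 against 2978 ± 255 CPM). Cluster 35 made up 1.71 to 26.0% of the D1-like nuclei of a library.

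Tshz2 had another distribution altogether. It was highest in the olfactory bulb projection neuron-like cells, the excitatory output neurons of the bulb, at 2934 ± 640 CPM in 7 libraries. The cholinergic-like neurons (1974 ± 459 CPM in 6 libraries) and the endothelial-like cells (1106 ± 209 CPM, with a UMI in 79.9% of nuclei) came next. Each step of this order was larger than its spread, the first of them in the 2 libraries that had both classes. With gated nuclei the first 2 changed places, at 1323 ± 1103 CPM in olfactory bulb projection neuron and 1558 ± 482 CPM in cholinergic nuclei. Of the 277 gated olfactory bulb projection neuron nuclei, however, only 57 lay in the class named from clusters. The L6b/subplate-like nuclei, at 20.6 ± 24.1 CPM among the lowest, had a Tshz2 UMI in 3.18%, at a median of 2921 UMIs against 1833 in the endothelial-like nuclei. This low place was not kept with gated nuclei, where the L6b/subplate nuclei were at 198 ± 162 CPM and the upper-layer nuclei at 42.2 ± 20.1 CPM. Within the striatum Tshz2 was higher in D2-like (359 ± 89.1 CPM) than in D1-like neurons (107.5 ± 43.0 CPM). In upper-layer-like neurons it ranged from 13.9 to 549 CPM.

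Tshz3, known from deep-layer projection neurons, was highest in the L6b/subplate-like neurons at 403 ± 57.4 CPM, the MGE-like interneurons at 357 ± 42.8 CPM and the cholinergic-like neurons at 313 ± 74.1 CPM. Neighbours among these 3 did not differ beyond their spread, and the deep-layer-like neurons followed at 194 ± 26.0 CPM. It was low in upper-layer-like (14.7 ± 12.8 CPM), D1-like (6.85 ± 4.10 CPM) and D2-like neurons (6.42 ± 5.08 CPM). The L6b/subplate-like and MGE-like neurons, first for Tshz3, were low in Meis1, Meis2 and Pbx3, while the cholinergic-like neurons were high in both Tshz3 and Pbx3.

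The choice of nuclei moved many of these levels. The gate and the clusters picked partly different nuclei. Of the gated nuclei, 613 of 1178 olfactory-type, 212 of 633 L6b/subplate and 2579 of 2948 D1 nuclei lay in the class of that name from clusters. Of 143 pairs of a gene and a class that had a level from clusters and from gated nuclei, 48 differed by over 1.5 times, 32 of them higher and 16 lower when gated, and 3 of the 8 genes, Meis1, Meis3 and Tshz1, had the same highest class. In the L6b/subplate nuclei Pbx3 was at 447 ± 164 CPM when gated against 72.3 ± 52.4 CPM, Meis2 at 431 ± 142 against 209 ± 79.2 CPM and Meis1 at 38.9 ± 26.1 against 7.24 ± 8.93 CPM. These remained below the D1 and D2 nuclei, where gated Pbx3 was at 2290 ± 472 and 1183 ± 376 CPM.

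**Figure D2:**
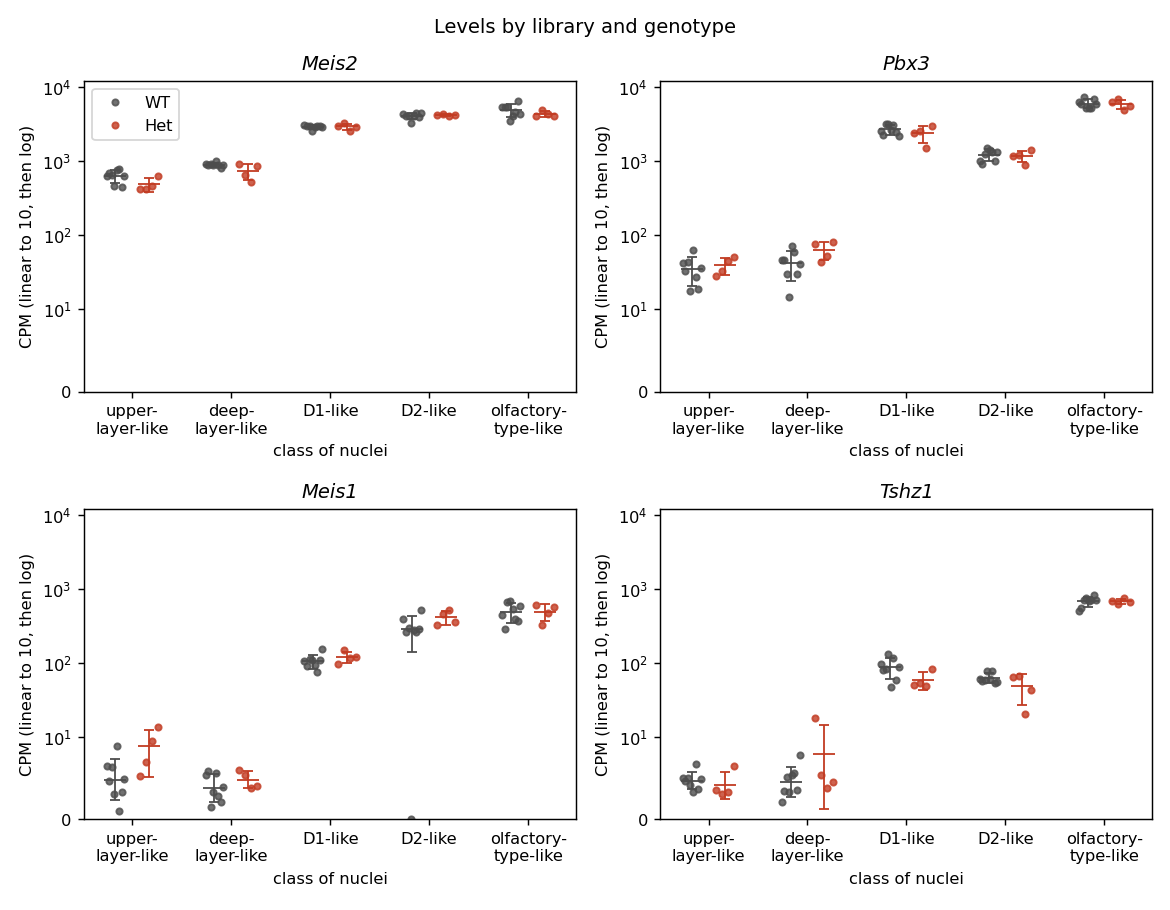
Levels of Meis2, Pbx3, Meis1 and Tshz1 in CPM (axis linear to 10, then logarithmic) in 5 classes of nuclei, with 1 point per library, WT in grey and Het in red, and a bar and whiskers for the mean and SD. Within each class WT and Het points overlap, while the olfactory-type-like and striatal-like classes lie above both excitatory classes, except for 1 D2-like Meis1 point at 0 from WT 4.

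Across the 53 clusters of at least 100 nuclei, the levels of the 8 genes went together to different degrees, as Pearson's r of log2(CPM + 1) over clusters, which share libraries and depth. Pbx3 and Tshz1 had an r of 0.81, Meis1 and Tshz1 of 0.73, Meis1 and Pbx3 of 0.69 and Meis1 and Meis2 of 0.56. Meis2 and Pbx3 had an r of 0.31, and Tshz3 was negative with Meis1 (−0.37), Meis2 (−0.28) and Pbx3 (−0.20). The olfactory-type-like cluster 19 was the highest of the 53 clusters for Meis1, Meis2, Pbx3 and Tshz1.

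Among all 12177 genes compared, the gene most like Meis2 was G630016G05Rik (r = 0.97), a long intergenic RNA gene that starts 1386 bases from Meis2 on the opposite strand. The gene most like Pbx3 was C79798 (r = 0.95), annotated as antisense inside Pbx3, followed by Tshz1 and Zfhx3 (0.80). The 3 genes most like Tshz3 were E230020A03Rik (0.95), Gm38340 (0.92) and Gm37452 (0.90), all annotated inside Tshz3 on its strand, so their counts and those of Tshz3 may come from the same transcripts. The gene most like Tshz1 was Map3k1 (0.84), and Zadh2 (0.78), 357 bases away on the opposite strand, came after Pbx3.

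For the other genes likeness was looser or of another kind. Igsf11 (0.75), Tshz1 and Map3k1 (0.72) were most like Meis1. B4galnt4 (0.82), Sh2b2 (0.81) and Rhebl1 (0.78) were most like Meis3, and Srp54a (0.89), Gpbp1 (0.87) and Tasor (0.87) most like Pbx2. Acp1 (0.61), Kif26a (0.56) and Zfp64 (0.52) were most like Tshz2. Gm13974 (0.85) and Gm44593 (0.80), both long intergenic RNA genes, came after G630016G05Rik for Meis2.

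The second question was whether heterozygous loss of Myt1l changed these genes. Counts were summed per library and class, and Het was compared with WT by edgeR, a gene being called at an adjusted p under 0.05 over all genes of that class and a log2 difference of at least 0.2. In the 17 classes with enough libraries, none of the 99 tests of the 8 genes was called, against 0.00891% of all tests in these classes, and DESeq2 called 0 too, against 0.0188%. At an unadjusted p under 0.05 there were 20 of 99, against 5.73% of all tests. Over the 3 groups of classes, none of 24 tests was called against 0.00913% of all tests, with 6 under an unadjusted 0.05 against 10.2% and 1 called by DESeq2 against 0.192%. Without the filter on low counts edgeR called 10 of 136 tests by class against 0.129% of all tests, 2 of 24 over groups against 0.197% and 17 of 392 by cluster against 0.0931%. The 10 were Tshz2 in upper-layer-like, deep-layer-like and CGE-like neurons, Pbx3 in deep-layer-like, MGE-like and septal-like neurons, Meis1 and Tshz1 in septal-like, Meis2 in MGE-like and Tshz3 in upper-layer-like neurons, and in none of them were the Het libraries all on one side of the WT libraries. The tests of 1 gene share libraries and, between groups and their classes, nuclei, so these are not independent. Because the 8 genes were chosen with earlier results of these data known, their counts against all tests, here and by cluster, describe this list only. In sums of this kind fewer nuclei of a subtype and less RNA per nucleus cannot be told apart.

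By cluster, 1 of 218 tests of the 8 genes was called, against 0.0152% of all tests, with 37 under an unadjusted 0.05 against 5.94%, and DESeq2 called 2 against 0.028%. The edgeR call was Meis2 in cluster 4, and it fell in Het. Cluster 4 held 3804 upper-layer-like nuclei with Adamts2, Hs6st2 and Unc5d, a marker of young upper-layer neurons, as leading genes. The WT libraries ranged from 1859.5 to 2131 CPM with a median of 2023 CPM. Het 1 to Het 4 were at 1568, 1392, 1352 and 1775 CPM, all below the lowest WT library.

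The log2 difference of Meis2 in cluster 4 was −0.41 ± 0.08 (SE, adjusted p = 0.0281 over all genes of the cluster), in a cluster in which 0.171% of genes were called and 0.305% had all Het libraries below all WT. The call was kept with sex as a term, in males only, with doublets kept and under DESeq2 (adjusted p = 0.0396, 0.0371, 0.0289 and 0.00059, DESeq2 calling 0.209% of genes). It was lost without a filter on low counts (0.0701), on leaving out Het 2 or Het 3 (adjusted p = 0.270 and 0.243) and on leaving out WT 2, WT 3, WT 6 or WT 7 (0.0590, 0.0533, 0.0614 and 0.0506), with differences between −0.42 and −0.36. With libraries of the same sex and number joined as blocks, which leaves out the WT libraries without a Het partner, the call was lost too, as given in the last section.

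Meis2 also had lower values in cluster 0, with 6214 nuclei the largest cluster, which carried no class name and had Tshr, Ntf3, Cntnap5c and Mkx as leading genes. WT ranged from 2065 to 2760.5 CPM with a median of 2331 CPM, and Het 1 to Het 4 were at 1976, 1856, 1723 and 1976 CPM, again all below WT. The log2 difference of −0.31 ± 0.08 did not pass in edgeR (adjusted p = 0.457) and passed in DESeq2 (0.0365), which called 0.053% of genes. In this cluster 0.297% of genes had all Het libraries below all WT.

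The other clusters varied. Of the 8 clusters that make up the excitatory classes, 7 had lower Meis2 values in Het and 1 higher, with a median log2 difference of −0.27. Clusters 2, 11, 22 and 26 were at −0.19, −0.40, −0.37 and −0.35 and clusters 3 and 7 near 0 at −0.06 and −0.02, while cluster 30, the L6b/subplate-like cluster, was at 0.47. Among all 48 clusters tested 36 were lower and 12 higher, and clusters 0 and 4 were the 2 with all Het libraries below all WT.

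The excitatory neurons here are the L6b/subplate-like, deep-layer-like and upper-layer-like classes together, without unnamed clusters such as cluster 0. In these Meis2 had a median of 724 CPM in WT, from 597 to 882 CPM. Het 1, Het 2 and Het 3 were at 485, 454.5 and 457 CPM, below every WT library, and Het 4, the female, was at 724 CPM among the WT libraries. The log2 difference of −0.45 ± 0.13 did not pass (adjusted p = 0.215). Without Het 4 it was −0.65 (adjusted p = 0.00397), and in males only, which also leaves out Het 4, −0.65 (0.0330). Of 12 omissions of 1 library only that of Het 4 passed. The difference lay between −0.65 and −0.39 over these omissions, with adjusted p up to 0.636.

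The mix of clusters within the excitatory neurons differed between libraries, so the Meis2 level was also computed with every cluster weighted by the same share in all libraries. With this fixed mix of 8 clusters the WT libraries lay between 719.5 and 811 CPM (750 ± 29.4 CPM) and the Het libraries between 510.1 and 707 CPM (613 ± 94.3 CPM). The log2 difference was −0.30, and every Het library was below every WT library, as were 0.264% of all genes. The 8 clusters include cluster 4, in which Meis2 was called, so the fixed-mix result is not independent of that call. The exact two-sided permutation p was 0.00202, the smallest that 495 arrangements of 8 and 4 libraries allow, for 1 of 24 such values computed and with the weighting chosen after the data were seen. With a fixed mix of 15 excitatory-type clusters, which include unnamed ones such as cluster 0, the difference was smaller, at −0.21. The highest Het library (966 CPM) was then just below the lowest WT library (969 CPM). Over all nuclei, with 39 clusters, it was −0.14 with overlapping libraries (exact permutation p = 0.0222).

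By class, 11 of 17 had lower Meis2 values in Het and 6 higher, with log2 differences from −0.48 to 0.59, a median of −0.15 and none called. Within the excitatory neurons the upper-layer-like class was at −0.38 and the deep-layer-like class at −0.28, whereas the L6b/subplate-like class, in which Meis2 is low, was at 0.47 (adjusted p = 0.649, 0.622 and 0.634). The deep-layer-like difference was −0.15 without Het 3 and with gated nuclei. Outside them the D1-like neurons ranged from 2526 to 3099 CPM in WT and were at 3005, 3223, 2576 and 2901 CPM in Het 1 to Het 4. Both striatal classes together gave a log2 difference of 0.02 ± 0.09, whose sign changed with the setting, and the olfactory-type-like neurons were at 4878 ± 950 CPM in WT and 4325 ± 384 CPM in Het. The MGE-like neurons, also low in Meis2, had a log2 difference of 0.43 (adjusted p = 0.674). Striatal-like nuclei had a larger mean share in Het, given below with the lineage factors. Whether the MGE-like and L6b/subplate-like rises of Meis2 are linked to it was not tested. The microglia-like cells were at −0.48, the cycling cells at −0.23, and the intermediate progenitor-like and astroglia-like cells each at −0.15, with overlapping libraries (adjusted p = 0.794, 1.00, 0.863 and 0.8996). The effect in the excitatory neurons minus that in the striatal neurons was −0.48 in log2(CPM + 1), with an exact permutation p of 0.0141. None of the 24 differences between groups of classes passed adjustment over the 24. With nuclei gated one by one on marker UMIs this difference was −0.31 (exact p = 0.111).

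**Figure D3:**
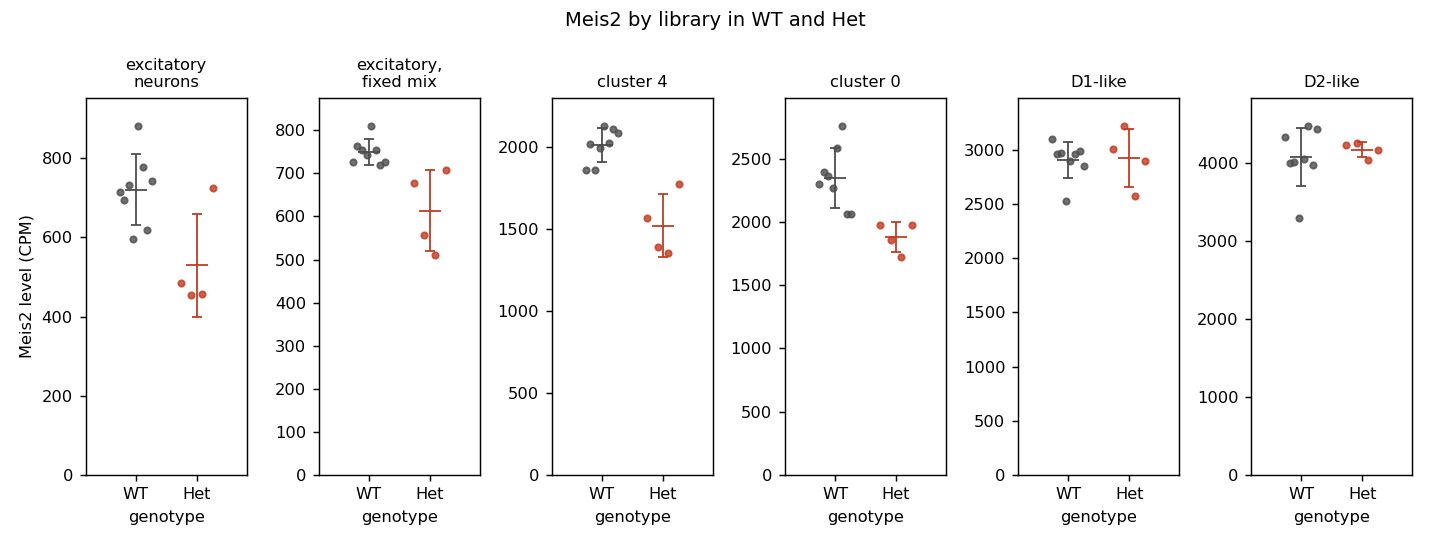
Meis2 level in CPM by library in WT (grey) and Het (red), in the excitatory neurons as counted, in the same with a fixed mix of clusters, in cluster 4, in cluster 0 and in the D1-like and D2-like neurons, with mean and SD. All 4 Het points lie below the WT points in the fixed mix (which includes cluster 4), cluster 4 and cluster 0, 3 of 4 lie below in the excitatory neurons as counted, and the points overlap in both striatal classes. Each panel has its own axis from 0.

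Tshz2 had higher values in Het in several cortical and interneuron classes, with no call. In the excitatory neurons WT ranged from 82.2 to 231 CPM with a median of 164.5 CPM, and Het 1 to Het 4 were at 179, 340.3, 522 and 154 CPM. The high values are those of Het 2 and Het 3, the other Het libraries lying within the WT range. The log2 difference was 0.83 ± 0.30 (adjusted p = 0.277). It was 1.03 and called without Het 4 (adjusted p = 0.0463) and turned to −0.15 with coarser clusters and −0.08 with the 8 genes kept for clustering. Over the 12 omissions of 1 library it lay between 0.41 and 1.03 (adjusted p up to 0.727), and only that of Het 4 was called.

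The libraries also differed in their number of nuclei of cluster 11, an upper-layer-like cluster led by Tshz2 itself, in which Tshz2 averaged 652 CPM in WT and 1143 CPM in Het. Cluster 11 held 1.49% of nuclei in WT libraries (0.741 to 2.73%) and 3.15, 8.06, 8.34 and 0.724% in Het 1 to Het 4, the highest shares being those of Het 2 and Het 3. Het 1, whose share was above that of every WT library, had a Tshz2 level within the WT range. Whether the share of cluster 11 goes with the Tshz2 level in the excitatory neurons was not tested. With the fixed mix of clusters the Tshz2 difference was 0.69, with overlapping groups and an exact p of 0.0141. In the CGE-like interneurons, a class outside the excitatory neurons, Tshz2 was at 3.72 to 41.2 CPM in WT and at 17.9, 94.0, 132 and 44.2 CPM in Het 1 to Het 4 (log2 difference 1.32 ± 0.38, adjusted p = 0.644, and called without Het 1 at 0.0184). Here too Het 2 and Het 3 were the highest. Over the 12 omissions of 1 library the CGE-like difference lay between 0.79 and 1.75, and only that of Het 1 was called.

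Tshz3 had lower values in Het over all nuclei. WT ranged from 91.8 to 125 CPM with a median of 99.5 CPM, and Het 1 to Het 4 were at 64.0, 70.9, 75.9 and 87.7 CPM, all below WT, as were 0.214% of all genes. The log2 difference was −0.50 ± 0.09 (adjusted p = 0.362 in edgeR, 0.00192 in DESeq2, which called 0.169% of genes, and 0.0310 in edgeR without Het 4). No other of 12 omissions of 1 library passed in edgeR, with differences between −0.58 and −0.43 and adjusted p up to 0.820.

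Over the excitatory neurons together Tshz3 was at 121 ± 29.0 CPM in WT and at 43.8, 84.0, 95.4 and 129.9 CPM in Het 1 to Het 4 (log2 difference −0.47 ± 0.23, adjusted p = 0.404), and at 0.16 with the fixed mix of clusters (exact p = 0.222). With unnamed clusters of excitatory type added the log2 difference was −0.41 ± 0.13 (adjusted p = 0.278, and 0.0220 without Het 4). No other of 12 omissions of 1 library passed, with differences between −0.55 and −0.28. Among the 13 clusters of this kind that were tested 6 were lower and 7 higher in Het, from −1.02 in the unnamed cluster 28 (adjusted p = 0.362) to 0.70 in cluster 3.

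Within the single classes that carry the most Tshz3 the differences were smaller. The MGE-like interneurons were at 372 ± 28.2 CPM in WT and 327 ± 55.0 CPM in Het (log2 difference −0.20 ± 0.09, adjusted p = 0.680), a difference between −0.29 and −0.10 on leaving out 1 library. The deep-layer-like neurons were at 190 ± 16.2 CPM in WT and 202 ± 41.5 CPM in Het, and the L6b/subplate-like neurons at 403 ± 63.3 and 403 ± 52.2 CPM. These 3 classes together made up 18.4 ± 4.22% of the nuclei of WT libraries and 11.8 ± 3.80% of those of Het libraries (exact permutation p = 0.0263), with Het 1 to Het 4 at 9.20, 9.42, 11.1 and 17.3%. The WT libraries ranged from 11.3 to 25.2%, so Het 4 lay among them. This grouping was not part of the design and leaves out the cholinergic-like neurons. Whether the share of these classes goes with the Tshz3 level over all nuclei was not tested. With a fixed mix of 39 clusters the Tshz3 level over all nuclei was 86.8 ± 6.02 CPM in WT and 84.0 ± 9.11 CPM in Het, a log2 difference of −0.05 (exact p = 0.503). The upper-layer-like neurons had a log2 difference of 1.52 from low levels (9.59 CPM in WT and 25.0 CPM in Het, adjusted p = 0.564), which was −0.45 with finer clusters and −0.12 with gated nuclei.

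**Figure D4:**
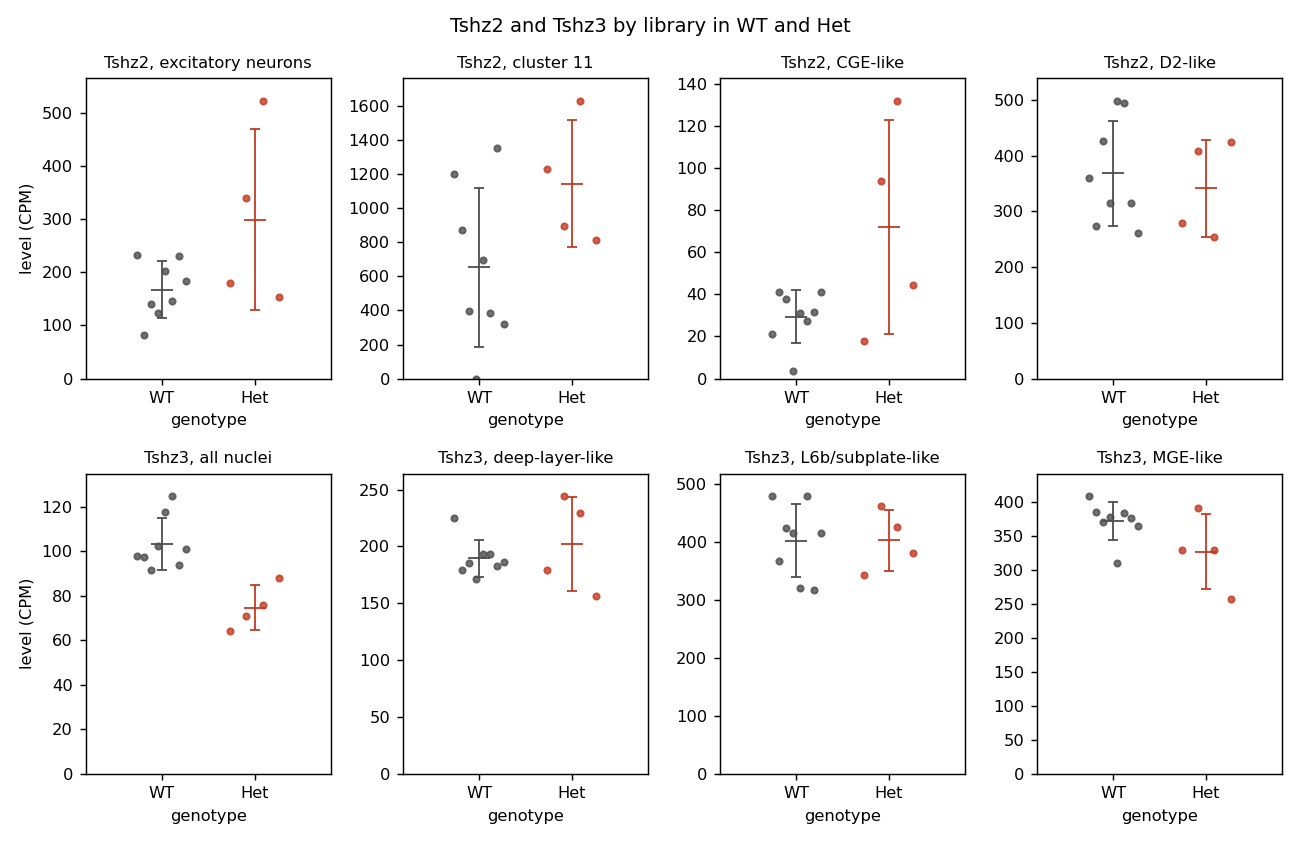
Levels in CPM by library in WT (grey) and Het (red), with mean and SD, of Tshz2 in the excitatory neurons, cluster 11, the CGE-like and the D2-like neurons (upper row) and of Tshz3 in all nuclei and in the deep-layer-like, L6b/subplate-like and MGE-like neurons (lower row). For Tshz3 all Het points are below the WT points over all nuclei, while they overlap within each of the 3 classes. Each panel has its own axis from 0.

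With the filter on low counts none of the tests of Meis1, Meis3, Pbx2, Pbx3 and Tshz1 was called. Tshz1 in D1-like neurons was at 46.8 to 129.5 CPM in WT, median 84.7 CPM, and at 50.9, 54.2, 48.3 and 82.6 CPM in Het 1 to Het 4 (log2 difference −0.47 ± 0.17, adjusted p = 0.640). With coarser clusters this difference vanished, as given in the last section. In cluster 1, the D1-like cluster with little Tshz1, its mean was 31.4 CPM in WT and 30.9 CPM in Het, and cluster 35 made up 13.1 ± 8.63% of the D1-like nuclei in WT and 8.32 ± 6.91% in Het (exact p = 0.354). Meis1 in the unnamed cluster 9, whose highest marker score was that of astroglia, was at 88.0 to 254 CPM in WT and at 70.9, 48.3, 70.5 and 77.9 CPM in Het, all below WT as were 0.247% of its genes, with a log2 difference of −0.82 that did not pass (adjusted p = 0.658).

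In the septal-like neurons Pbx3 was at 1299 ± 431 CPM in WT and 803 ± 304 CPM in Het, Meis1 at 115 ± 103 and 47.5 ± 18.8 CPM and Tshz1 at 151 ± 117 and 48.0 ± 38.5 CPM. Their log2 differences were −0.67, −0.86 and −1.54 (adjusted p = 0.765, 0.833 and 0.812), with overlapping libraries for all 3 genes. Meis1 in the excitatory neurons was higher in Het at a low level, 4.28 ± 1.66 CPM in WT and 7.24 ± 1.399 CPM in Het (log2 difference 0.71, adjusted p = 0.264).

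Pbx3 was at 756 ± 207 CPM in WT and 548 ± 164 CPM in Het in the intermediate progenitor-like cells (log2 difference −0.46, adjusted p = 0.473). This difference lay between −0.61 and −0.29 on leaving out 1 library. In the olfactory-type-like neurons Pbx3 was at 5965 ± 805 CPM in WT and 5847 ± 822 CPM in Het. By class it was lower in Het in 13 of 17 and higher in 4, the latter being cortical neurons and interneurons with low levels. These were the deep-layer-like (42.6 ± 18.2 CPM in WT and 63.5 ± 17.9 CPM in Het, log2 difference 0.56), L6b/subplate-like (0.73), MGE-like (0.49) and upper-layer-like neurons (0.16), with adjusted p = 0.674, 0.647, 0.712 and 0.931. Among the 14 excitatory-type clusters tested for Pbx3 4 were lower and 10 higher. For Meis3 no class had an unadjusted p under 0.05, nor for Pbx2 in the classes where it was tested. The differences between groups of classes included 1 other unadjusted exact p under 0.05, that of Pbx2 between excitatory and olfactory-type-like neurons (1.63, p = 0.0465), from levels of at most 25.1 CPM.

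The list of 8 partners holds genes of the same homeodomain class as MEIS and PBX and genes of proteins that bind them. Of these, 1 was called in 139 tests by cluster, where 0.0152% of all tests were called, and none in 54 tests by class and 17 over groups of classes, where 0.00891% and 0.00913% of all tests were called. This was Mkx, a homeobox gene listed for its class, which fell in cluster 11. It was at 60.9 to 207 CPM in WT and at 46.9, 24.0, 43.1 and 113 CPM in Het 1 to Het 4, with a log2 difference of −1.82 ± 0.30 (adjusted p = 0.0218), in a cluster in which 0.0327% of genes were called. The call was lost under DESeq2, which called 0.0% of the genes of this cluster (log2 difference −1.51, adjusted p = 0.0602), with sex as a term (0.0953) and on leaving out WT 7, Het 2 or Het 3 (0.0886, 0.418 and 0.235). With the replicate block, which leaves out the WT libraries without a Het partner, it was lost too (log2 difference −1.15, adjusted p = 0.121). Cluster 11 held 60 to 907 nuclei of each Het library, and Het 4 lay within the WT range. Of the 18 listed factors of the striatal and olfactory-type lineages, which include Dlx1, Dlx2, Pax6, Sp8, Isl1 and Foxp1, none was called in 138 tests by class, 39 by group and 291 by cluster, against these same shares of all tests. Their median log2 difference was 0.51 in upper-layer-like, 0.37 in MGE-like, 0.32 in L6b/subplate-like and 0.09 in deep-layer-like neurons. It was 0.09 in D1-like, −0.01 in D2-like and 0.07 in olfactory-type-like neurons. The D1-like and D2-like share averaged 7.50 ± 3.22% for WT and 11.7 ± 3.47% for Het (exact permutation p = 0.0626). Whether the low-level rises of Meis1, Meis2 and Pbx3 in cortical classes go with this share was not tested.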

How the data were processed

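Per the labels and the study's methods, the authors barcoded nuclei with a split-pool kit, aligned and counted with the kit maker's pipeline on mm10, and deposited expected counts of UMIs per gene and nucleus, of which about 6.58 to 6.88% of the listed entries in each library are not whole. The submitters' processing notes name Seurat 4.3.0. Nuclei were kept if they held 800 to 6000 UMIs and 300 to 3000 genes, if mitochondrial genes took no more than 1% and if log genes divided by log UMIs reached 0.9, and the 5% of barcodes per library with the highest simulated-doublet score were removed.

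The 3000 most variable genes without the 8 genes and their partners gave 50 principal components and Leiden clusters (resolution 1.5, leidenalg 0.10.2). A cluster was named where at least 3 markers of a list were raised and the list led the others, with thresholds set after the clusters were seen. The members and lists were chosen with earlier results of these data known.

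Rounded sums per library (at least 10 nuclei, at least 3 libraries per genotype) were tested with edgeR 4.0.16 (quasi-likelihood, TMM, filterByExpr, genotype only, Benjamini-Hochberg over all genes of a unit). The design had foreseen whole counts, hence the rounding. Differences between groups of classes and fixed-mix levels were tested by exact permutation of 495 arrangements. Named genes were the 8 members, listed partners that were called, and the 3 genes most like each member over clusters with a mean of at least 5 CPM, and a further listed gene is not reported here. In simulated counts for the olfactory-type-like class, on 5728 genes, 16% of changes of 1.5-fold and 54% of changes of 2-fold were recovered, and in the upper-layer-like class, on 11002 genes, 58% and 84%. False calls were 5 of 123 calls in the olfactory-type-like class, 18 of 184 in the upper-layer-like class and 16 of 183 in both striatal classes together. Alternatives were DESeq2 1.42.0, no filter, sex, replicate block, males only, doublets kept, other resolutions, gated nuclei and each library left out. Gene positions came from GENCODE on GRCm38, to which 54587 of 55335 gene IDs matched.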

Additional observations from a re-analysis of the deposited data

Results flagged for a closer look

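The highest and lowest library of each group of 4 to 8 libraries was compared with the spread of its group by Dixon's criterion in 70 groups, and 8 stood apart, while chance flags about 1 in 20 groups. The female library Het 4 stood apart for Meis2 in excitatory neurons at 724 CPM, with the next Het library at 485 CPM. WT 4, with 19 D1-like and 10 D2-like nuclei, was the lowest WT library for Meis2 in D1-like neurons (2526 CPM, next 2851), in D2-like neurons (3302 CPM, next 3984) and in both together (2691 CPM, next 3249), and had 0 CPM of Pbx2 in striatal neurons (next 6.74). Meis3 in olfactory-type-like neurons was at 90.1 CPM in Het 2 (next 44.3). Tshz3 was at 225 CPM in deep-layer-like neurons of WT 1 (next 194) and at 311 CPM in MGE-like neurons of WT 5 (next 364.5).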

How the results depend on the processing

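The count of calls among the 8 genes was 0 by class and 0 over groups of classes, and 1 by cluster. By class it was 10 of 136 tests without a filter on low counts, where 0.129% of all tests were called, and on leaving out 1 library it lay between 0 and 2, the 2 being Tshz3 in upper-layer-like and Tshz2 in CGE-like neurons without Het 1. Over groups it was 1 under DESeq2 (Tshz3 over all nuclei), 2 without the filter, 1 in males only (Meis2 in excitatory neurons), and between 0 and 3 on leaving out 1 library, the 3 being Meis2 and Tshz2 in excitatory neurons and Tshz3 over all nuclei without Het 4. For males only, leaving out 1 library and the replicate block the share of all tests called is not given here. The counts in these settings therefore have no background to be set against. By cluster it was 2 under DESeq2 and 17 of 392 tests without the filter (0.0931% of all tests). Of the 24 differences between groups of classes, 0 passed, 1 passed in gated nuclei (Tshz1, excitatory minus striatal), and 0 passed on leaving out any library. By the mean over libraries 5 of 8 genes (Meis1, Meis2, Pbx2, Pbx3 and Tshz1) were higher in olfactory-type-like than in excitatory neurons, and 6 with gated nuclei and with coarser clusters. The cause of these changes was not tested.

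The log2 difference of Meis2 in striatal neurons, 0.016, lay between −0.035 and 0.052 on leaving out 1 library and turned to −0.035 without WT 4, −0.021 without Het 2, −0.036 with the replicate block, −0.016 and −0.011 with coarser and finer clusters and −0.044 in gated nuclei. Tshz2 in excitatory neurons turned to −0.15 with coarser clusters and −0.083 with the 8 genes kept for clustering, Tshz3 in upper-layer-like neurons to −0.45 with finer clusters and −0.12 in gated nuclei, and Tshz1 in D1-like neurons to 0.0066 with coarser clusters. Of the values for single genes, 590 counted as the same. For a log2 difference this meant the same direction and side of the threshold, and for a level a mean within 1 SD of the main mean. For the Meis2 difference between excitatory and striatal neurons it meant an unadjusted exact p under 0.05. Of the others, 28 passed the threshold, 9 fell short of it, 11 levels moved and 11 reversed. The level of Pbx3 in olfactory-type-like neurons was 2860 CPM in gated nuclei.

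The replicate block joined libraries of the same sex and number. It used WT 1, WT 2, WT 3 and WT 6 with the Het libraries and left out the other WT libraries. By cluster it was fitted only in clusters already picked for a call. The effect of the block and that of the smaller set of WT libraries cannot be told apart. The deviations of the 4 same-numbered pairs had correlations between −0.18 and 0.28, 2 of them over 0.1. Whether such libraries share a litter or a day is not known, and 4 pairs cannot decide it. With the block there were 0 calls by class and 0 over groups, Meis2 in cluster 4 was at −0.37 (adjusted p = 0.260), Mkx in cluster 11 at −1.15 (adjusted p = 0.121) and Tshz2 in cluster 0 at 1.75 (adjusted p = 4.26e-05). Without the block Tshz2 in cluster 0 was not called in edgeR. On leaving out 1 library it lay between 0.87 and 1.54, with 0 calls and a lowest adjusted p of 0.303.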
